A study of Homo sapiens with 6 samples.

Results

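Ribosome biogenesis genes encode the nucleolar machinery that copies ribosomal DNA and trims, modifies and assembles the transcripts into ribosomal subunits. The group described here was chosen by name, as the entries of the expression table that carry 1 of 39 symbols for nucleolar processing factors and RNA polymerase I genes. All 39 were found among the 58938 entries of the table. They were measured by RNA sequencing in HCT116, an established human colorectal cancer cell line. Cells at 60% density received a plasmid by lipofection, with a medium change at 6 hours and RNA extraction at 30 hours. The vector group (genotype WT, 3 libraries) was compared with the group overexpressing MST3 from a plasmid (3 libraries). MST3 is a GCKIII-family protein kinase encoded by STK24. No source used here gives the promoter on that plasmid. Replicates carry numbers 1 to 3, and no label says that they are separate cultures. The p-values therefore weigh differences against sample-to-sample spread that may be technical only.

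The ribosomal DNA is transcribed by RNA polymerase I into a long precursor. Box C/D ribonucleoproteins methylate it and box H/ACA ribonucleoproteins convert selected uridines to pseudouridine, each led to its site by a small nucleolar RNA (snoRNA). The small subunit processome and the large subunit factors then cleave and fold the precursor into pre-ribosomal particles. Proliferating cancer cells keep this pathway active, and the transcription factor MYC is a known activator of many of its genes through the E-box sequence CACGTG.

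Values are FPKM, fragments per kilobase of gene after scaling of each library. The reads behind them came to 15289213 to 17708029 per library. STK24, the check of the labels, had 17.1, 17.4 and 17.4 FPKM in vector replicates 1 to 3 and 63.7, 72.2 and 76 FPKM in MST3 replicates 1 to 3. It was the only gene of 13036 tested to pass limma over all genes (log2 difference 1.97, SE 0.09, adjusted p = 0.000998, higher in 3 of 3 MST3 libraries). All 8 epithelial markers looked up had a mean of at least 18.8 FPKM. Of 12 markers of fibroblasts, leukocytes and endothelial cells, 11 had a mean of at most 0.153 FPKM and COL1A1 had 4.25 FPKM. MST3 replicates 1 and 3 stood apart from the other 4 libraries over all tested genes. Their median absolute distance from the median of the other 5 libraries was 0.157 and 0.179 on the log2(FPKM + 1) scale, against 0.0701 to 0.12 for the others.

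The E-box is shown first because the choice of members did not use sequence. RefSeq gave start-site windows for 34 of the 39 genes, 44 windows of 300 bases in all (250 before and 50 after an annotated start, GRCh38.p14). CACGTG, which reads the same on both strands, was present in 16 of these 44 windows (36.4%), belonging to 15 genes. The share over all 35116 windows of the table was 7.26%. It was 27% among 111 windows of other ribosome biogenesis factors and 5.95% among 84 windows of cytosolic ribosomal protein genes. Windows of 1 gene overlap or share sequence, so these shares are descriptions. A match is not a bound site. No window of the RNA polymerase I genes and factors (POLR1A, POLR1B, POLR1C, UBTF, TAF1D and RRN3) held the motif. The sites of 8 members, chosen to cover the other roles below, are printed 5′ to 3′ on the gene's strand with the E-box in capitals:
FBL (19:39846356-39846385, minus strand): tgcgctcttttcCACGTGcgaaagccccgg
GAR1 (4:109815781-109815810, plus strand): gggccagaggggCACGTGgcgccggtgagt
NOP10 (15:34343130-34343159, minus strand): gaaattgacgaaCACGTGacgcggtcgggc
RRP9 (3:51941892-51941921, minus strand): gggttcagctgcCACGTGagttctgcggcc
UTP20 (12:101280083-101280112, plus strand): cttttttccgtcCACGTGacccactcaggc
PES1 (22:30591880-30591909, minus strand): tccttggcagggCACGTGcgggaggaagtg
NOP2 (12:6568242-6568268, minus strand): aggtccggattgCACGTGgagggccgc
DDX21 (10:68956604-68956633, plus strand): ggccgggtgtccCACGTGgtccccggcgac
The first base of the E-box lay 5 bases before the start in RRP9, 10 before in UTP20 and 11 before in NOP10. It lay 7 bases after the start in FBL, 14 after in PES1 and 31 before in DDX21. NOP10 had a further CACGTG 170 bases before its start. Among the 15 genes there were 17 sites, 7 before and 10 after a start. The 14 tested genes with an E-box had a median level of 20.7 FPKM, and the 19 tested genes with a window but no E-box had 9.76 FPKM. Their median differences between the groups were 0.06 and 0.00 on the log2(FPKM + 1) scale. The 2 sets also differed in median gene length, 3070 bp with an E-box and 5550 bp without. All 6 RNA polymerase I genes and factors, with a median of 9.61 FPKM, were in the set without. NPM1 (303 FPKM) and NCL (107 FPKM), the members with the highest levels, were also in that set. How far length or role accounts for these values was not tested. MYC itself stood at 108 ± 4.19 FPKM with vector against 98 ± 19.8 FPKM with MST3 (SD, n = 3; limma adjusted p = 0.752).

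Most of the chosen members were among the more abundant mRNAs of HCT116. The 38 members with a mean of at least 1 FPKM had a median of 18.1 FPKM, against 5.81 FPKM for all 13036 tested genes, and 34 of the 38 lay above the median gene. The level was lower for 114 other tested factors of the pathway, with a median of 8.48 FPKM and 86 above the median gene. The member that failed the filter, NOP2, is described below. None of the 38 passed limma over all genes (smallest adjusted p = 0.719), where 0.00767% of all tested genes were called. At an unadjusted p under 0.05 there were 2 of 38, NHP2 and PPAN, where 5.38% of all genes had so small a p. Voom on the recovered reads also called 0 of the 38 over all genes, with 3 at an unadjusted p under 0.05, where voom gave 6.68% of all genes so small a p. The groups did not overlap for 5 of 38 (13.2%), where the share over all genes was 11.9%. FBL, DKC1, NHP2 and PPAN lay higher, as 5.19% of all genes did without overlap, and RRP1B lower, as 6.7% did. Of the 38, 22 were higher and 16 lower by mean, and 46.6% of all tested genes were higher. The median difference was 0.015 for the members and -0.014 for all tested genes on the log2(FPKM + 1) scale. The 95% interval of the difference included 0 for 36 members and stayed inside 0.5 either side of 0 for 32. These are levels relative to the library, so a change of all mRNAs together, or in RNA per cell, cannot be seen.

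**Figure D1:**
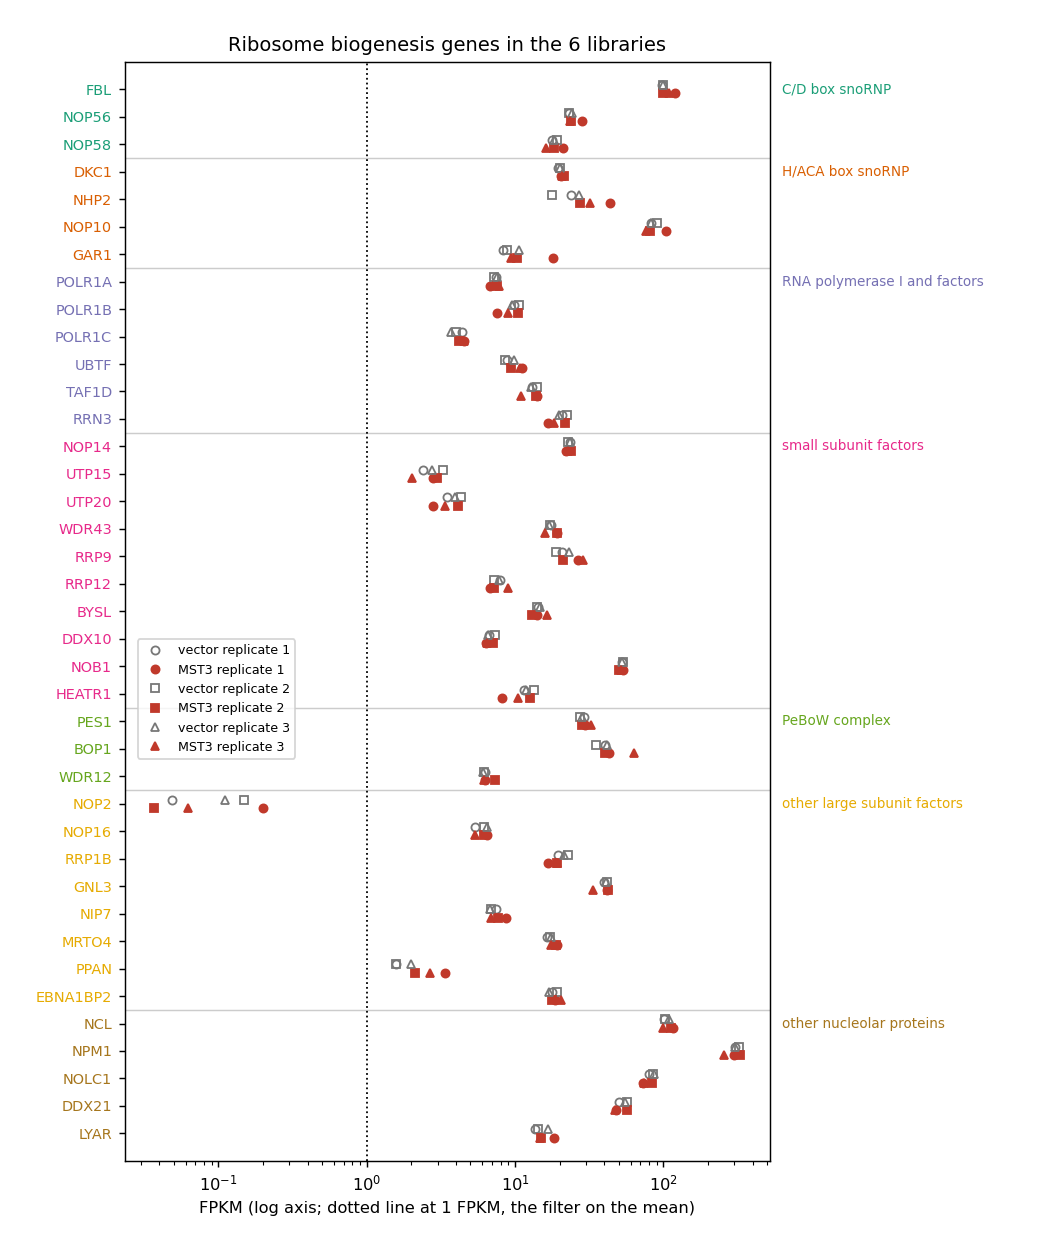
FPKM (log axis) of the 39 genes in each of the 6 libraries, grouped by role; open grey symbols are vector libraries, filled red symbols MST3 libraries, and the dotted line marks 1 FPKM. Most genes lie between 2 and 330 FPKM with the groups overlapping, and NOP2 lies below 0.21 FPKM in all 6 libraries.

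The box C/D proteins are the methyltransferase fibrillarin (FBL) and its scaffold partners NOP56 and NOP58. FBL (ENSG00000105202; chromosome 19, 39834458 to 39846414, minus strand, GRCh38) had 97.6, 99.2 and 99.6 FPKM with vector against 119, 99.9 and 109 FPKM with MST3. The groups did not overlap, but MST3 replicate 2 lay within 1 FPKM of the highest vector library. The log2 difference was 0.14 (SE 0.09, 95% interval -0.08 to 0.36, limma adjusted p = 0.719), and p was 0.1 by a two-sided exact permutation test, whose floor with 3 libraries a side is that same value. NOP56 had 23.3 ± 0.58 and 25 ± 2.6 FPKM and NOP58 had 18.4 ± 0.642 and 18.5 ± 2.48 FPKM in vector and MST3 libraries (SD, n = 3). All 3 box C/D mRNAs were highest in MST3 replicate 1.

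The box H/ACA core consists of the pseudouridine synthase dyskerin (DKC1) with NHP2, NOP10 and GAR1, the core proteins that also belong to telomerase. NHP2 (ENSG00000145912; chromosome 5, 178149460 to 178153967, minus strand) had 23.7, 17.8 and 27 FPKM with vector against 43.6, 27.3 and 32.2 FPKM with MST3. The groups did not overlap, and vector replicate 3 and MST3 replicate 2 differed by less than 1 FPKM. The means were 22.8 ± 4.67 and 34.4 ± 8.4 FPKM (SD, n = 3), from 600 and 866 reads per library. The log2 difference of NHP2 was 0.56 (SE 0.20, 95% interval 0.08 to 1.04), with an unadjusted p of 0.027 and an adjusted p = 0.719 by limma, the largest difference of any member at a pseudocount of 1. At a pseudocount of 0.1 PPAN was larger, at 0.62 against 0.58, and by voom at 0.67 against 0.61. Leaving out MST3 replicate 1 gave an unadjusted limma p of 0.0775, and leaving out vector replicate 2 gave 0.0906. Over part of its exons, 27.4% of bases, NHP2 overlaps an exon of a gene on the opposite strand, so without a stated strand setting those reads cannot be assigned. Other members also overlap exons on the opposite strand, so the same limit holds for them. Counted over either strand, the shared bases came to 23.2% in HEATR1, 20.5% in EBNA1BP2, and 20.2% in NOB1 and NIP7. They came to 20% in NOP16 and 18.2% in POLR1C.

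GAR1 (ENSG00000109534; chromosome 4, 109815510 to 109824740, plus strand) had 8.31, 8.81 and 10.7 FPKM with vector against 18.1, 10.3 and 9.32 FPKM with MST3. MST3 replicate 1 alone was outside the vector range. The log2 difference was 0.36, 95% interval -0.18 to 0.89, and it was 0.08 when MST3 replicate 1 was left out. NOP10 showed the same library on top, with 104 FPKM in MST3 replicate 1, 80.9 and 76.5 FPKM in MST3 replicates 2 and 3, and 82.3 to 90.3 FPKM in the vector libraries. DKC1, the catalytic subunit, had 19.8 ± 0.247 and 20.8 ± 0.521 FPKM (SD, n = 3), the smallest CV (SD over mean) of any tested member among MST3 libraries. Its groups did not overlap, and the difference was 0.06 on the log2 scale, 95% interval -0.11 to 0.23.

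RNA polymerase I genes stood lower than the other roles, with a median of 9.61 FPKM over 6 genes, and none had groups that did not overlap. The largest subunits POLR1A and POLR1B had 7.41 ± 0.165 and 9.99 ± 0.564 FPKM in vector libraries, and 7.36 ± 0.518 and 8.94 ± 1.45 FPKM in MST3 libraries (SD, n = 3). POLR1B had 7.5 FPKM in MST3 replicate 1 but 10.4 FPKM in replicate 2, inside the vector range of 9.51 to 10.6 FPKM, and 8.91 FPKM in replicate 3. Its log2 difference was -0.15 (SE 0.12, 95% interval -0.43 to 0.12), and -0.05 when MST3 replicate 1 was left out. POLR1C, shared with RNA polymerase III, had 4.04 ± 0.341 and 4.4 ± 0.195 FPKM (SD, n = 3). UBTF, the factor that binds ribosomal DNA and keeps it open, had 8.88, 8.55 and 9.9 FPKM with vector against 11, 9.44 and 10.7 FPKM with MST3, on the log2 scale a difference of 0.17, 95% interval -0.04 to 0.39. RRN3, which recruits the polymerase to the promoter, went the other way at 20.9 ± 1.28 and 18.9 ± 2.63 FPKM (SD, n = 3; interval -0.41 to 0.12). TAF1D, a subunit of the promoter selectivity factor SL1, differed by -0.05 with an interval of -0.30 to 0.21.

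Among the 10 small subunit factors 3 were higher and 7 lower by mean, with a median difference of -0.02. HEATR1 (ENSG00000119285; chromosome 1, 236549005 to 236604504, minus strand), a large scaffold of the processome also called UTP10, had the most negative difference of any member. It had 11.4, 13.5 and 11.8 FPKM with vector against 8.13, 12.6 and 10.4 FPKM with MST3. MST3 replicate 2 lay inside the vector range and the other MST3 libraries below it. The log2 difference was -0.23 (SE 0.15, 95% interval -0.58 to 0.12, limma adjusted p = 0.719), and it was -0.08 without MST3 replicate 1. UTP20 (chromosome 12, 101280109 to 101386616, plus strand), another giant scaffold, had 3.47, 4.34 and 3.92 FPKM with vector against 2.8, 4.09 and 3.37 FPKM with MST3. It was likewise lowest in MST3 replicate 1, and the groups overlapped. Its log2 difference was -0.16 (SE 0.13, 95% interval -0.45 to 0.14), and -0.05 when MST3 replicate 1 was left out. UTP15, of the complex that links transcription to processing, had 2.39, 3.26 and 2.75 FPKM with vector against 2.79, 3 and 2.02 FPKM with MST3. MST3 replicate 3 was the lowest, and the log2 difference was -0.08 (SE 0.14, 95% interval -0.41 to 0.24).

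RRP9, which recognises the U3 snoRNA, had 20.7, 18.9 and 23.2 FPKM with vector against 26.5, 20.9 and 28.5 FPKM with MST3, on the log2 scale a difference of 0.26, 95% interval -0.06 to 0.57. MST3 replicates 1 and 3 exceeded every vector library and MST3 replicate 2 did not. NOB1, the nuclease that makes the mature end of the small subunit RNA, was the most abundant of these factors and among the steadiest. It had 52.9 ± 0.407 FPKM with vector against 51.9 ± 1.78 FPKM with MST3 (SD, n = 3), a difference of -0.03 with an interval of -0.21 to 0.15. NOP14, WDR43, RRP12, BYSL and DDX10 all had intervals that include 0 and lay within 0.3 of it.

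The PeBoW complex, needed for processing of the large subunit RNAs, is formed by PES1, BOP1 and WDR12. BOP1 (ENSG00000261236) had 40.1, 35.3 and 41.9 FPKM with vector against 43, 40.1 and 63.4 FPKM with MST3. The value in MST3 replicate 3 stood alone, and the other MST3 libraries lay inside the vector range or within 2 FPKM of it. The log2 difference was 0.29, 95% interval -0.12 to 0.70. It was 0.09 when MST3 replicate 3 was left out and 0.15 with length and GC trends removed. PES1 was also highest in MST3 replicate 3, at 32.4 FPKM against 27.2 to 29.7 FPKM, while WDR12 was highest in MST3 replicate 2, at 7.35 FPKM against 6.06 to 6.27 FPKM. So the 3 mRNAs of this complex did not peak in the same library.

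Among the other large subunit factors, RRP1B had groups that did not overlap in the lower direction, the only such member. RRP1B (ENSG00000160208; chromosome 21, 43659548 to 43696079, plus strand) had 19.5, 22.6 and 21.2 FPKM with vector against 16.6, 19 and 19 FPKM with MST3. The log2 difference was -0.20 (SE 0.09, 95% interval -0.43 to 0.02; limma unadjusted p = 0.0675, adjusted p = 0.719). GNL3, the GTPase nucleostemin, was lowest in MST3 replicate 3, at 33.4 FPKM against 40 to 42.1 FPKM in the other 5 libraries. MRTO4, NIP7, EBNA1BP2 and NOP16, all acting on pre-60S particles, had differences of 0.11, 0.12, 0.07 and 0.00 with intervals that include 0.

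PPAN (ENSG00000130810; chromosome 19, 10106289 to 10111634, plus strand), a pre-60S factor also called SSF1, had 1.59, 1.58 and 1.97 FPKM with vector against 3.37, 2.12 and 2.67 FPKM with MST3. The groups did not overlap, and the values rest on 70 to 139 reads per library. The ratio of means was 1.59 and the log2 difference 0.44 (SE 0.14, 95% interval 0.11 to 0.78), with an unadjusted p of 0.0168 and an adjusted p = 0.719 by limma. The unadjusted p was above 0.05 when vector replicate 1 (0.0511), vector replicate 2 (0.0512) or MST3 replicate 1 (0.0536) was omitted, and was 0.0648 after the trends of each library with gene length and GC content were removed.

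The remaining nucleolar proteins held the highest levels. NPM1 (nucleophosmin, a histone and ribosome chaperone) had 306, 325 and 305 FPKM with vector against 299, 330 and 254 FPKM with MST3, at percentile 99.3 of all tested genes. MST3 replicate 3 was low and replicate 2 was the highest of the 6. The log2 difference was -0.09, 95% interval -0.36 to 0.18. Of 45 annotated NPM1 pseudogenes, 17 had reads and 1, NPM1P27, stood at 21.6 FPKM, so reads may be split between copies. NCL (nucleolin, which binds nascent ribosomal RNA) had 104 ± 4.58 and 109 ± 9.23 FPKM (SD, n = 3; interval -0.17 to 0.29). NOLC1, a chaperone of snoRNPs, and the helicase DDX21 differed by -0.13 and -0.10, and LYAR by 0.10, all with intervals that include 0.

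**Figure D2:**
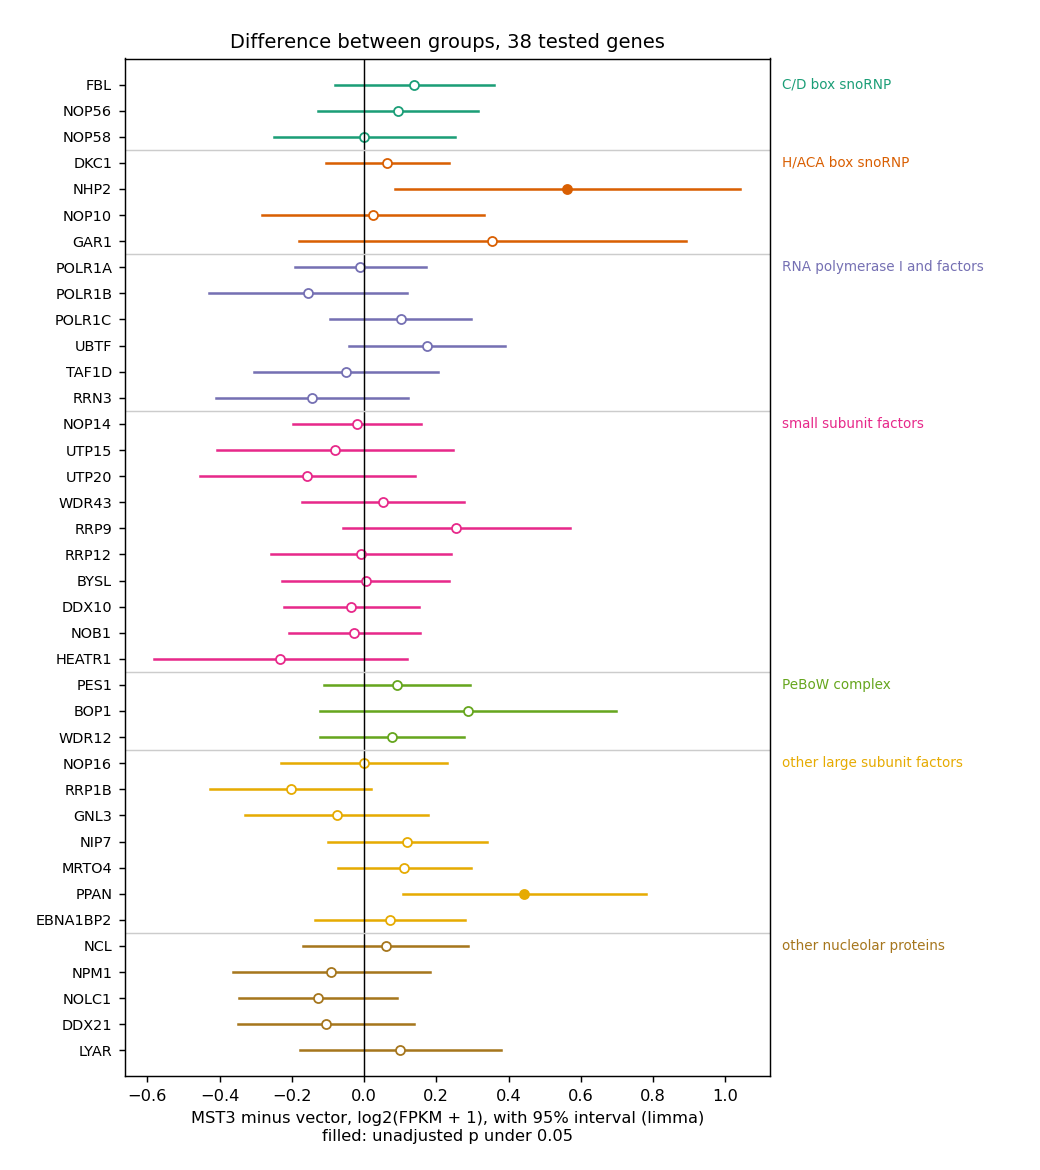
Difference between MST3 and vector libraries on the log2(FPKM + 1) scale for the 38 tested genes, with the 95% interval from limma as a line; filled points have an unadjusted p under 0.05. NHP2 (0.56) and PPAN (0.44) are the only filled points, and 36 of the 38 intervals cross 0.

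NOP2 was the only member under the filter, and PPAN had the lowest level of the tested members. NOP2 (ENSG00000111641; chromosome 12, 6556863 to 6568691, minus strand) encodes a methyltransferase of the large subunit RNA. It had 0.0486, 0.149 and 0.11 FPKM with vector against 0.201, 0.0368 and 0.0622 FPKM with MST3, or 3 to 15 reads per library. The GENCODE 29 annotation places a read-through protein-coding gene, AC006064.6 (chromosome 12, 6556886 to 6607367, minus strand), across NOP2 and its neighbour CHD4. Of the coding bases of NOP2, 91.9% also lie in an exon of another gene on the same strand. AC006064.6 was listed at 0 in all 6 libraries, and CHD4, with 93.1% of its coding bases shared, at a mean of 2.33 FPKM.

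PPAN is in the same position, with 94.3% of its coding bases inside exons of other genes on its strand, among them the read-through gene PPAN-P2RY11 (chromosome 19, 10106223 to 10114780, plus strand), which was also listed at 0. The other 37 members shared at most 0.0531% of their coding bases, and their means ran from 2.7 to 303 FPKM. Over the whole table, 900 protein-coding genes shared over 90% of their coding bases, and 7.89% of these reached a mean of 1 FPKM. Among the 17507 protein-coding genes with no shared coding bases 56.9% did. The counting program is not given in the sources used here, so how it treated reads in shared exons was not tested. Whether the FPKM of NOP2 and PPAN can be set beside those of other members is therefore not known.

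**Figure D3:**
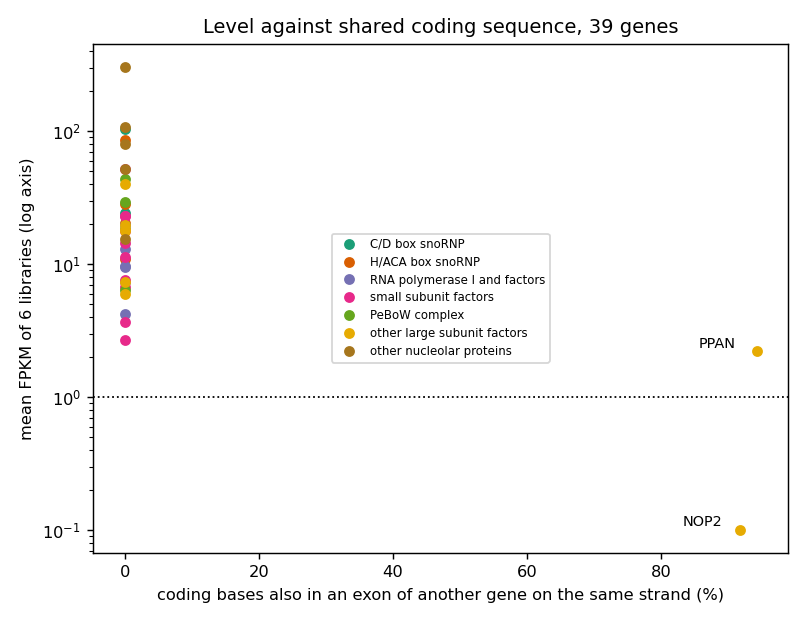
Mean FPKM over the 6 libraries (log axis) against the share of coding bases that also lie in an exon of another gene on the same strand, for the 39 genes coloured by role. NOP2 (91.9%) and PPAN (94.3%) sit apart at the right with the lowest means, and the other 37 genes lie at or near 0%.

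Several members carry snoRNA genes in their introns, the guides of the box C/D and H/ACA enzymes above. By position, 34 annotated snoRNA genes, 1 of them a related scaRNA in POLR1C, lay inside 9 of the 39 members on the same strand, 8 of them in TAF1D, 6 in GNL3 and 5 in NOP56. In all 6 libraries together they had 340 reads, spread over 14 snoRNAs. Reads were absent from all 14 snoRNAs whose whole length lies in an annotated exon of another gene on that strand. Of the other 20, 14 had reads, the highest being SNORD19 in GNL3 (8.84 FPKM) and SNORD6 in TAF1D (8.24 FPKM), each from 62 reads. With so few reads no comparison between groups was made.

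The members varied more among MST3 than among vector libraries. The coefficient of variation (CV) was larger among the MST3 libraries for 37 of 38 members, with POLR1C the exception. Its median was 5.33% among vector and 10.9% among MST3 libraries. Over all 13036 tested genes the medians were 7.25% and 13.6%, and 77.1% of genes were wider among the MST3 libraries. The widest was GAR1, at 38.3% among MST3 libraries, followed by BOP1 at 26% and NHP2 at 24.5%. MST3 replicate 1 held the highest value of 15 members and the lowest of 10, and MST3 replicate 3 the highest of 7 and the lowest of 9. MST3 replicate 2 was highest for 6 and lowest for 2. Vector replicates 1 to 3 were highest for 0, 9 and 1 members and lowest for 7, 6 and 4. Over all 13036 tested genes, MST3 replicates 1 to 3 were highest for 2363, 1850 and 3705 and lowest for 3557, 1727 and 3158. There vector replicates 1 to 3 were highest for 1003, 3078 and 1037 and lowest for 1038, 2483 and 1073.

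**Figure D4:**
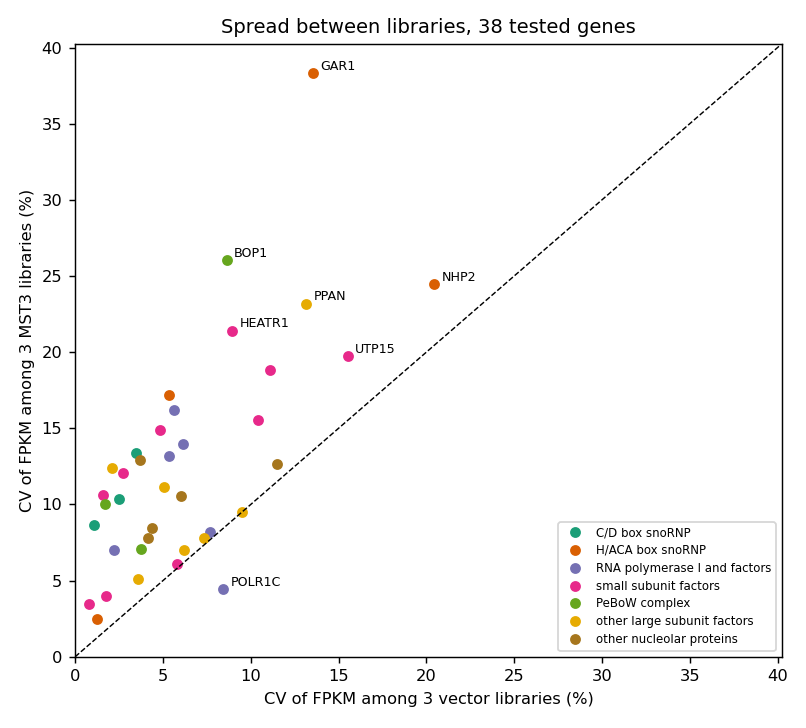
CV of FPKM among the 3 MST3 libraries against that among the 3 vector libraries (%), 1 point per tested gene coloured by role, with the dashed line marking equal spread. All points but POLR1C lie above the line, and GAR1 is the farthest from it at 38.3%.

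The 2 outlying MST3 libraries deviated from the vector mean in step with gene length and GC content, to different degrees. In MST3 replicate 1 the deviation was larger for shorter members, with a Spearman rho of -0.60 between deviation and gene length across the 38 tested genes, and -0.31 across all 13036. The 19 members of at most 4130 bp had a median deviation of 0.14 in that library, and the 19 of at least 4156 bp 0.00. NHP2 (1510 bp) deviated by 0.93 and GAR1 (2046 bp) by 0.90, while HEATR1 (9049 bp) deviated by -0.53 and UTP20 (10024 bp) by -0.36. In MST3 replicate 3 the deviation followed GC content more closely, with a rho of 0.80 across members and 0.69 across 12933 tested genes. There BOP1, with a GC content of 65.2%, deviated by 0.69 and RRP9, with 60.9%, by 0.43. At the low end UTP15 (38.7%) deviated by -0.32 and TAF1D (36.5%) by -0.26. Each library also had a weaker trend with the other property, in the same direction. MST3 replicate 1 had a rho of 0.35 with GC content across members and 0.22 across all tested genes. MST3 replicate 3 had a rho of -0.25 with length across members and -0.16 across all tested genes.

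MST3 replicate 2 had a rho of 0.14 with length and -0.30 with GC content across members, and of -0.01 and -0.23 across all tested genes. Across members, vector replicates 2 and 3 had rho of -0.67 and 0.56 with GC content, and 0.31 and -0.41 with length. Across all tested genes these were -0.44 and 0.26 with GC content, and 0.08 and -0.05 with length. A trend with GC content was thus also seen among vector libraries, and that with length was small there over all tested genes. The vector libraries make up the mean that deviations are taken from, so their deviations are tied to each other. Their rho are therefore not directly comparable with those of MST3 libraries. These correlations are across genes of the same library, which share its depth and preparation, and are given without a test. The difference between groups had a rho of -0.46 with gene length and 0.54 with GC content across members, and -0.26 and 0.44 across all tested genes. After the length trend of each library was removed, NHP2 differed by 0.49 and HEATR1 by -0.17. After length and GC trends were both removed they differed by 0.45 and -0.12, and FBL by 0.07.

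**Figure D5:**
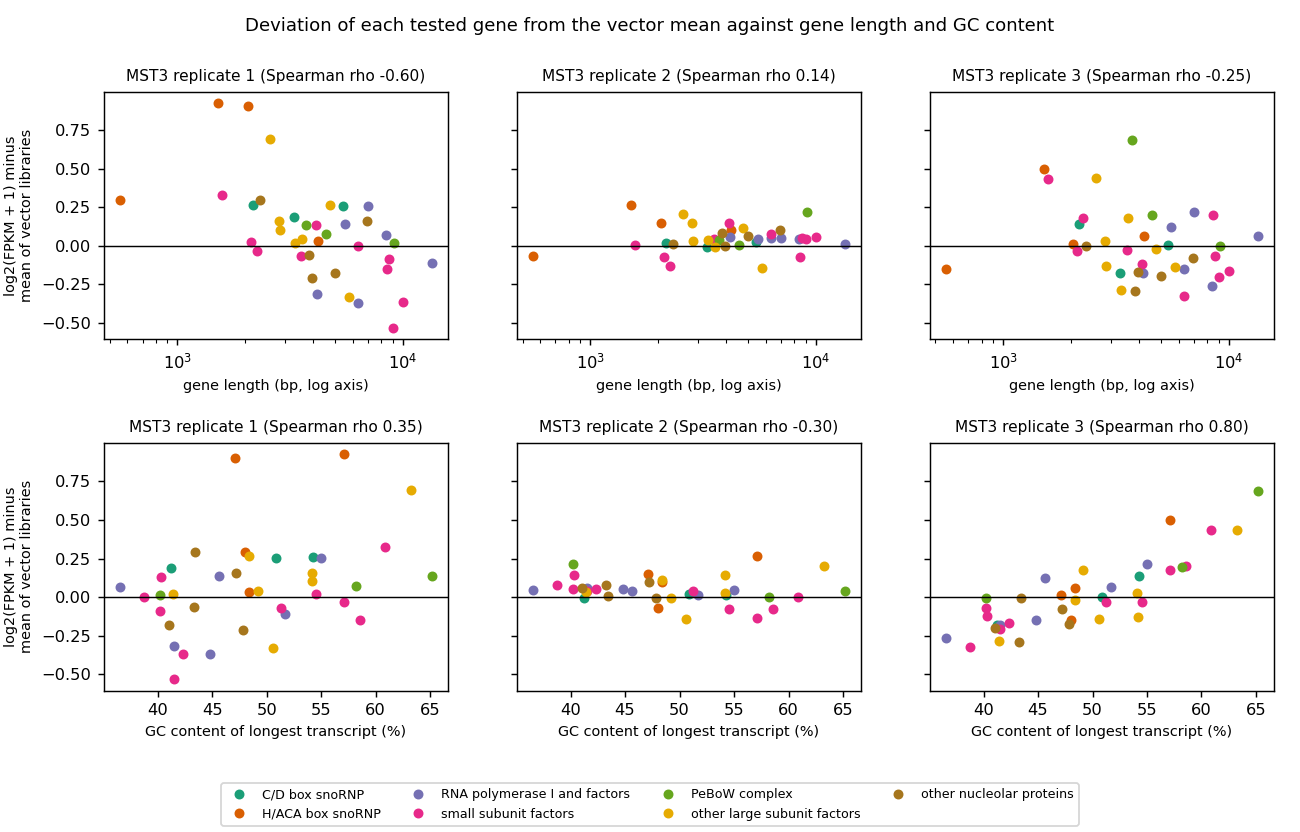
Deviation of each tested gene from the mean of the vector libraries, in log2(FPKM + 1), against gene length (upper row, log axis) and GC content of the longest transcript (lower row) in MST3 replicates 1 to 3, coloured by role. The points slope down with length in replicate 1 (rho -0.60) and up with GC content in replicate 3 (rho 0.80), and stay within 0.27 of 0 in replicate 2.

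The other genes of the pathway, a list of 115 further factors, gave 114 tested genes of which 46 were higher and 68 lower by mean, with a median difference of -0.03. None passed over all genes by limma or by voom, with 11 in limma at an unadjusted p under 0.05, 9 higher and 2 lower, where the shares over all genes were 3.51% higher and 1.86% lower. PWP2, a core processome protein, had 2.43, 2.42 and 2.39 FPKM with vector against 4.2, 2.99 and 3.5 FPKM with MST3 (difference 0.41, limma adjusted p = 0.719). SURF6 and the helicase DDX49 lay the same way, with differences of 0.42 and 0.26. NOL11 had 20.2 ± 0.971 FPKM with vector against 17.1 ± 1.11 FPKM with MST3 (SD, n = 3; difference -0.22), with RIOK3 (-0.29) and UTP25 (-0.22) on that side. Groups did not overlap for 16 of the 114 (14%), 9 higher and 7 lower, where the share over all tested genes was 11.9%.

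Cytosolic ribosomal protein genes encode the products that the members assemble. The median deviation from the vector mean of 82 tested ribosomal protein genes was 0.32 in MST3 replicate 1 but 0.02 and 0.01 in replicates 2 and 3. That of the 38 members was 0.06, 0.04 and -0.03, and that of the 114 further factors -0.01, 0.03 and -0.09. For ribosomal protein genes 61 of 82 had their highest value in MST3 replicate 1, against 15 of the 38 members and 2363 of all 13036 tested genes. The summed FPKM of the 39 members was 1230 to 1275 in the vector libraries and 1324, 1296 and 1211 in MST3 replicates 1 to 3, so the totals of the groups overlapped. The median length of the tested ribosomal protein genes was 3056 bp and that of the tested members 4143 bp. How far length accounts for the difference between the lists was not tested.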

How the data were processed

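RNA of 6 HCT116 libraries, 3 vector and 3 MST3, was summarised by the authors as FPKM per gene in 1 deposited table with gene position, length and biotype. HISAT2 is the tool named, per the submitters' processing notes. Which version was run, how reads were counted and whether by strand, and on which build, no source used here gives. All 58735 Ensembl entries matched GENCODE 29 (GRCh38) in position and in length as the union of exons. FPKM times length was a whole multiple of 1 step per library in 100.0% of values (tolerance 0.01), which gave the reads behind them.

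Tests used limma 3.58.1 in R 4.3.3 on log2(FPKM + 1) with an intensity trend, over the 13036 genes whose mean reached 1 FPKM, two-sided, with Benjamini-Hochberg adjustment over all of them at 0.05. On this scale the change of genes with low FPKM is understated. Exact permutation tests compared 3 libraries with 3. The fits were also run on simulated counts, with the same dispersion for every gene and library and without length or GC trends. Those runs do not show how the fits behave on libraries of unequal spread. GC content came from the longest GENCODE 29 transcript, and shared bases from its exons. Tables were handled in Python 3.11.15 with pandas 2.3.3.

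The members and lists were chosen with earlier results of these data known, so no list was tested. Full values are given for members with an unadjusted p under 0.05, the 4 largest differences in each direction and the 3 highest and lowest tested levels, and other members by role. Outside this rule DKC1, RRP9, UBTF, NOP2, SNORD19, SNORD6, CHD4 and the read-through genes were singled out after their values were seen. From the further factors, the 3 smallest p in each direction are named. Alternatives covered pseudocounts, filters, scalings, variance models, voom on recovered reads, length trends, a replicate block and the omission of single libraries. The joint length and GC trend was added after seeing the data.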

Additional observations from a re-analysis of the deposited data

How the results depend on the processing

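No member passed over all genes under any of the alternatives run, and STK24 was the only gene called in each. The number of members at an unadjusted p under 0.05 was 2 of 38 by limma, 1 of 34 with a filter at 5 FPKM (5.52% of all genes), 4 of 38 with the replicate block (10.3% of all genes) and 5 of 38 with the replicate block and the length trend removed (10.2%). It was 0 to 7 with a library left out: 0 without vector replicate 2 (2.29% of all genes) or MST3 replicate 1 (3.47%), 1 when vector replicate 1 was omitted (3.41%) and 7 when MST3 replicate 2 was (19.6%). The number whose groups did not overlap was 5, and 2 with equal sums of FPKM (8.91% of all genes). It was 4 with quantile normalization (12.2%) and 4 of 34 with a filter at 5 FPKM (12%). It was 7 with the length trend removed (11.2%), with or without the replicate block, and 7 with length and GC trends removed (14.5%). It was 5 to 19 with a library left out, where fewer libraries make such a split easier: 9 without vector replicate 1 (20.4% of all genes), 19 when MST3 replicate 2 was omitted (42.2%), and 11 without vector replicate 3 (20.8%) or MST3 replicate 3 (24.9%). The median difference was 0.015, and 0.0083 to 0.062 with a library left out, the highest without MST3 replicate 3. It was 0.0021 with quantile normalization, 0.0040 with no filter, 0.025 with equal sums, 0.036 with median-of-ratios factors, 0.047 by voom, 0.050 with the length trend removed, 0.054 with length and GC trends removed and 0.057 with sample weights. UTP15 (-0.08) changed sign to 0.017 with length and GC trends removed, and ran from -0.16 to 0.040 with a library left out, positive without vector replicate 2 or MST3 replicate 3. NPM1 (-0.09) ran from -0.18 to 0.0098, positive without MST3 replicate 3. The cause was not tested. The labels state no pairing, so the numbers were used as pairs only in the replicate block fits. Same-numbered libraries deviated together with r of 0.02, 0.23 and 0.04 across tested genes, and not every library correlated best with its own number. NOP2 rested on 3 to 15 reads per library and the snoRNAs on 340 reads in all. Why these counts were low was not tested.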
